A study of Rattus norvegicus with 12 samples.

Results

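The genes described here encode the subunits of voltage-gated sodium and calcium channels in rat brain. They were taken by symbol: sodium channel alpha and beta subunits (Scn followed by a number and a or b), calcium channel alpha1 (Cacna1), alpha2delta (Cacna2d), beta (Cacnb) and gamma (Cacng) subunits. A gene was kept with at least 10 counts in 3 or more libraries. Among 37209 symbols in the count table, 39 fitted the naming pattern and 36 met the minimum. Of the other 3, Scn10a reached at most 9 counts in a library, Cacna2d4 at most 14, and Cacna1f is listed at 0 in all 12 libraries. The zero of Cacna1f is not informative, since 591 of 606 protein-coding symbols that RefSeq places on the X chromosome are also listed at 0 throughout, against 229 of 2196 on chromosome 1. All 36 members passed the expression filter and were among the 17008 genes tested. The alpha subunit gene Scn2a is listed under its older symbol Scn2a1, which the pattern does not cover, so it is shown beside the members and not counted with them.

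Bulk RNA sequencing was made of brain from Sprague Dawley rats labelled as postnatal day 21, with 3 libraries in each of 4 groups. Rats of the stroke groups had either a middle cerebral artery occlusion (MCAO), which stops blood flow to part of a cerebral hemisphere, or a pontine infarction, an infarct of the pons in the brainstem. The controls are 3 libraries coded LN and 3 coded PN. They are called sham LN and sham PN here and were set against MCAO and pontine infarction, respectively, by the first letter of the library codes. No genotype, transgene or drug treatment is named for any group. Neither the time after the stroke nor the dissected region is stated in the sources used here. Of the 12 columns 1, an MCAO column, carries a code that matches no sample title, and it is called the unnumbered MCAO library. The labels name 3 rats for each stroke but do not tie libraries to animals. The p-values therefore set group differences against the spread between libraries, estimated over all 12, which need not be that between rats.

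A voltage-gated sodium or calcium channel is built around a large alpha subunit that forms the pore and senses voltage. Sodium channel alpha subunits start and carry the action potential, and their beta subunits are small membrane proteins that tune gating and act in cell adhesion. In calcium channels the intracellular beta and the largely extracellular alpha2delta subunits bring the alpha1 pore to the surface and shape its currents, which trigger transmitter release and gene expression. Most neuronal gamma subunits are better known as TARPs, partners of AMPA-type glutamate receptors.

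Libraries held 19805815 to 40400676 counts. The channel subunits took 0.573% to 0.642% of all counts in sham LN and 0.378% to 0.551% in MCAO, with no overlap between these groups. In sham PN they took 0.295% to 0.309% and in pontine infarction 0.229% to 0.274%, also without overlap. Of the member counts, Scn4b alone held 31727 of 159001 in sham LN replicate 3 and 16897 of 112442 in MCAO replicate 2. Without Scn4b the shares of sham LN and MCAO overlapped at these libraries, so that separation depends on 1 gene. The brain label fitted the neuronal markers, of which 11 of 12 were detected and Syn1, an X-linked gene, was at 0. Their summed level was 3379 to 7609 CPM over the 12 libraries. Here CPM are counts scaled to the library's total multiplied by its scaling factor from edgeR (TMM). The sham sets differed in regional markers: 8 telencephalon markers summed to 651 to 681 CPM in sham LN and 20.2 to 25.1 in sham PN, while 10 hindbrain and brainstem markers summed to 2.22 to 3.37 and 213 to 246. The hindbrain and brainstem markers also differed from the matched shams after each stroke. They summed to 19.5, 4.10 and 24.6 CPM in MCAO replicate 1, replicate 2 and the unnumbered library, above every sham LN library. In pontine infarction they summed to 102 to 150 CPM, below every sham PN library. In other markers 3 of the stroke libraries stood apart. In MCAO replicate 2 the neuronal markers, at 6292 CPM, lay within the range of sham LN, while 6 reactive astrocyte markers summed to 4278 CPM against 458 to 584. MCAO replicate 1 held 1084 CPM of 4 choroid plexus markers against 1.33 to 8.27 in the other MCAO libraries, and pontine infarction replicate 3 held 837 CPM of 7 cerebellar markers against 132 to 170 in the other pontine infarction libraries. In bulk tissue fewer cells of a type and less RNA per cell cannot be told apart.

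**Figure D1:**
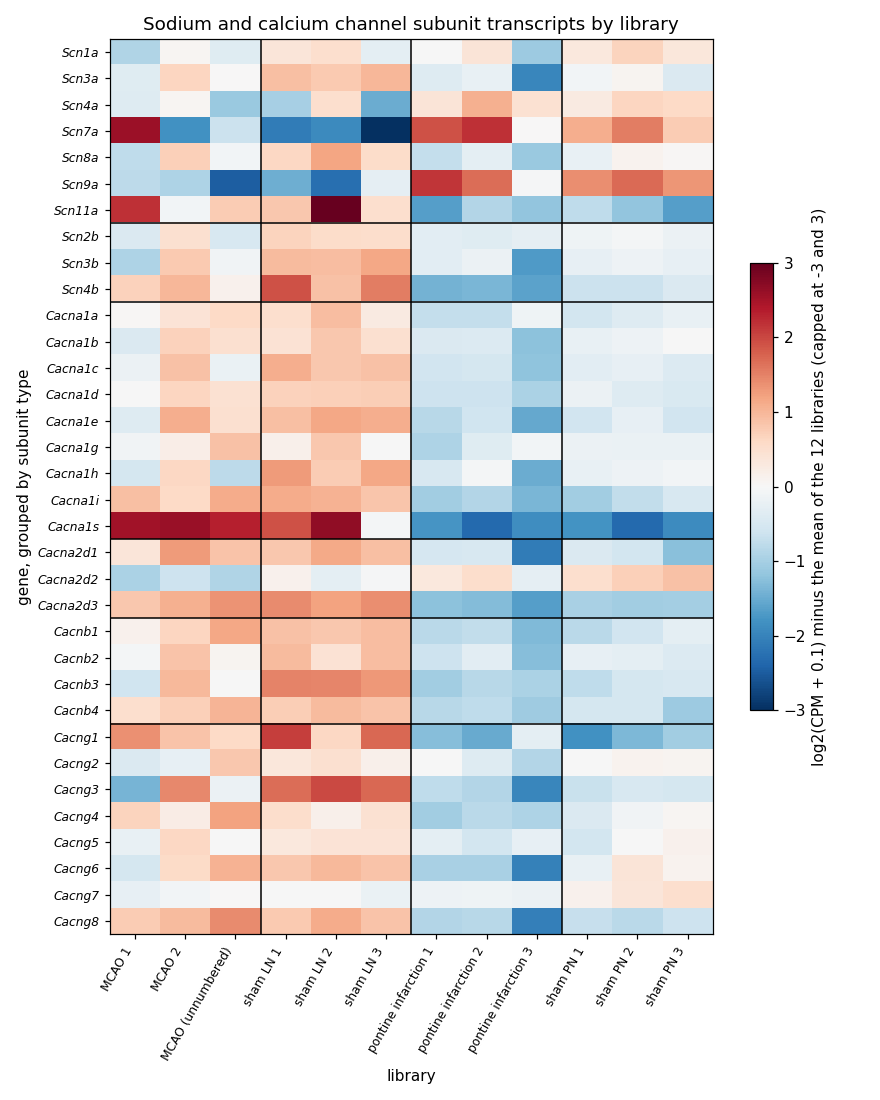
Level of 34 channel subunit genes in each of the 12 libraries, as log2(CPM + 0.1) minus the gene's mean over the 12 libraries, with colours capped at -3 and 3. Blue is below that mean and red above it. Most calcium channel genes are red in the 3 sham LN libraries and blue in the PN and pontine infarction libraries, and for most genes MCAO replicate 1 and pontine infarction replicate 3 are further to the blue side than the other libraries of their group.

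After MCAO, 3 channel subunits fell and 1 rose against sham LN at an adjusted p under 0.05, in edgeR's quasi-likelihood test with Benjamini-Hochberg adjustment over all genes tested. Those that fell were Cacnb3, an intracellular beta subunit of calcium channels, Cacna2d2, an alpha2delta subunit that binds gabapentin, and Scn4b, a sodium channel beta subunit linked to resurgent current. The gene that rose was Scn7a, which encodes the sodium-sensing channel Nax, and its rise rested on 1 library. The other 32 members did not pass. Over all genes tested 6.07% fell and 12.5% rose, against 8.33% and 2.78% of the members, so the share of members that fell was near that of all genes.

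Most members had a negative log2 change after MCAO, although few passed the test. The change was below 0 in 30 of 36 members (83.3%), against 50.2% of all genes tested, and the median change was -0.30 against -0.00176 over all genes. In 8 members (22.2%) all MCAO libraries lay below all sham LN libraries, against 18.7% of all genes, and 9 (25%) were lower at an unadjusted p under 0.05, against 15.3%. The sodium beta subunits had the lowest median change of the subunit classes at -0.75, followed by sodium alpha subunits at -0.48, calcium beta at -0.30, alpha1 at -0.27, alpha2delta at -0.25 and gamma subunits at -0.20.

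After pontine infarction 0 members passed edgeR's test against sham PN, in either direction, while DESeq2 called 3 lower (Cacng4, Cacng7 and Scn4b) and limma voom 0. Over all genes edgeR called 0.870% lower and 3.21% higher. DESeq2 called 514 of 17008 genes lower and limma voom 117. Lower values were nevertheless frequent: 31 of 36 members (86.1%) had a negative change, against 58% of all genes, with a median of -0.39 against -0.08. All pontine infarction libraries lay below all sham PN libraries for 15 members (41.7%), against 18.7% of all genes, and 8 members (22.2%) were lower at an unadjusted p under 0.05, against 10.4% of all genes. None was higher at that threshold. Among these members were the TARPs: of 6 tested, 6 had a negative change and 5 did not overlap with their shams. Without pontine infarction replicate 3, the library with cerebellar markers, the median change of the 36 members was -0.26, 31 were still negative and 0 passed. The part of the cerebellar transcripts in these values was not tested.

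Markers of other cell types moved in the same libraries. After MCAO 6 of 6 reactive astrocyte markers rose, from 458 to 584 CPM in sham LN to 4278 to 9134 in MCAO when summed, and 5 of 5 neutrophil markers rose, from 3.40 to 4.47 CPM to 49.7 to 599. Of 8 astrocyte markers 6 fell and 8 had a negative change (median log2 change -0.74), as did 7 of 7 tested oligodendrocyte markers, of which 3 fell (median -0.76), and 6 of 6 markers of oligodendrocyte precursors, of which 4 fell (median -0.69). These medians are further below 0 than that of the channel subunits. Of the 11 neuronal markers tested 0 fell, 1 rose and 10 had a negative change (median -0.28). Markers of particular neurons went lower: of 10 striatal projection neuron markers 5 fell and 10 had a negative change (median -1.15). Of 8 telencephalon markers 1 fell and 8 had a negative change (median -0.44). Of 9 tested hindbrain and brainstem markers 4 rose, and 5 had a positive and 2 a negative change (median 2.54). Of 8 microglia and phagocyte markers 3 rose and 1 fell. After pontine infarction 4 of 6 reactive astrocyte, 5 of 8 microglia and phagocyte and 2 of 5 neutrophil markers rose, while 2 of 7 oligodendrocyte and 1 of 8 astrocyte markers fell (medians -0.69 and -0.32) and 0 of 11 neuronal markers passed (median -0.53). Of the 9 hindbrain and brainstem markers 1 fell after pontine infarction and 8 had a negative change (median -0.92). The part of these cell types and regions in the channel values was not tested.

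**Figure D2:**
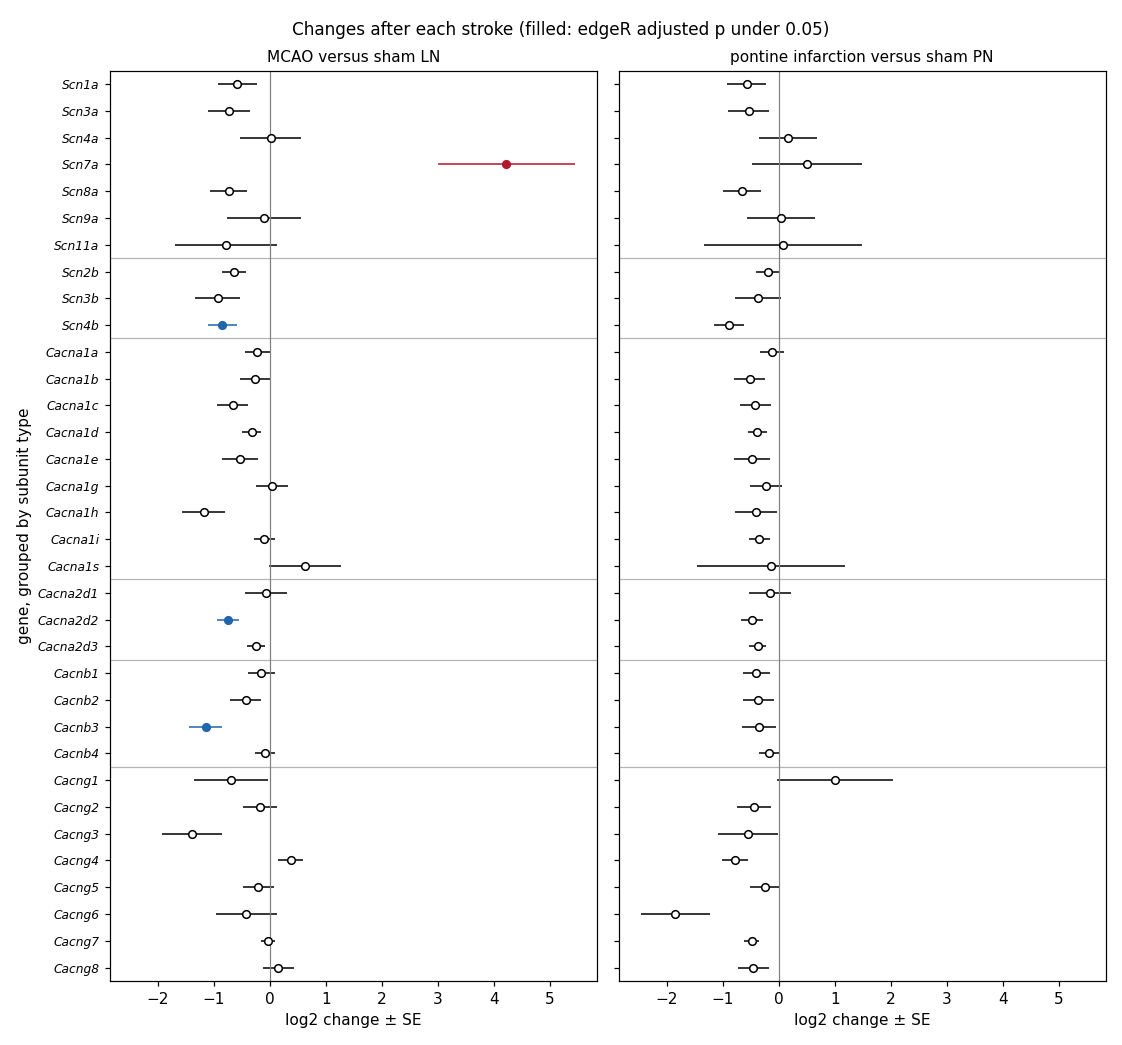
Log2 change of 34 channel subunits with its standard error (x axis, log2 scale, same range in both panels), for MCAO against sham LN (left) and pontine infarction against sham PN (right). Filled symbols mark an adjusted p under 0.05: 3 members fell and 1 rose after MCAO, and 0 passed after pontine infarction, where 29 of 34 points lie below 0.

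Among sodium channel alpha subunits, Scn1a, the Nav1.1 pore of fast-spiking interneurons, was at 42.9, 83.8 and 61.8 CPM in the MCAO libraries. Values of MCAO are given for replicate 1, replicate 2 and the unnumbered library, and those of the other groups in replicate order. In sham LN Scn1a was at 104, 113 and 65.9, in pontine infarction at 79.0, 105 and 37.8 and in sham PN at 99.2, 128 and 102. Both stroke groups overlapped with their shams, the lowest values being MCAO replicate 1 and pontine infarction replicate 3. The log2 change was -0.58 ± 0.35 (SE; edgeR adjusted p = 0.247) after MCAO and -0.57 ± 0.35 (adjusted p = 0.363) after pontine infarction. Scn3a, the Nav1.3 pore that is prominent in the developing brain, was at 32.1, 64.6 and 41.7 CPM in MCAO against 77.7, 70.8 and 82.3 in sham LN. All MCAO libraries were below all shams, yet the change of -0.74 ± 0.37 did not pass (edgeR adjusted p = 0.18). In pontine infarction it was at 31.7, 35.2 and 10.6 against 38.9, 43.6 and 30.4 in sham PN, where only replicate 3 was below the lowest sham (log2 change -0.54 ± 0.37, adjusted p = 0.425).

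Scn8a encodes Nav1.6, the main pore of mature axon initial segments and nodes of Ranvier. Its levels were 104, 291 and 166 CPM in MCAO and 273, 401 and 259 in sham LN, so that MCAO replicate 2 lay within the shams and the other MCAO libraries below them. In pontine infarction they were 107, 144 and 81.2 against 153, 189 and 183 in sham PN, with no overlap. Its log2 change was -0.74 ± 0.33 after MCAO (edgeR adjusted p = 0.135) and -0.66 ± 0.33 after pontine infarction (0.276). Scn2a1, the Nav1.2 gene outside the 36 members, was at 159, 399 and 229 CPM in MCAO against 353, 478 and 388, and at 128, 148 and 97.1 in pontine infarction against 146, 155 and 124. It also did not pass after either stroke (log2 changes -0.63 ± 0.28 and -0.19 ± 0.28, edgeR adjusted p = 0.135 and 0.732), and both stroke groups overlapped with their shams.

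Scn7a does not act as a voltage-gated pore but responds to extracellular sodium, and is known from glia and sensory circumventricular organs. It had 147, 5 and 14 counts in the MCAO libraries (7.07, 0.247 and 0.677 CPM) and 7, 6 and 0 counts in sham LN (0.184, 0.222 and 0 CPM). MCAO replicate 1 held most of the counts, and MCAO replicate 2 was only just above the highest sham. The log2 change was 4.21 ± 1.22 (edgeR adjusted p = 0.0355), and without MCAO replicate 1 it was 1.62 ± 0.94 with an adjusted p of 0.289. This is the library with 1084 CPM of choroid plexus markers, all 4 of which were detected in every group, against 1.15 to 4.85 CPM in sham LN. The part of that tissue in the Scn7a value was not tested. Pontine infarction and sham PN libraries held more Scn7a, 4.46, 5.50 and 1.12 and 2.49, 3.40 and 1.98 CPM, and overlapped (log2 change 0.50 ± 0.98, adjusted p = 0.802).

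The remaining alpha subunits were scarce in all groups, at 13.1 CPM or less in each library. Among them are Scn4a, the skeletal muscle pore, and Scn9a and Scn11a, the Nav1.7 and Nav1.9 pores of sensory neurons. None passed after a stroke. Scn9a was at 1.64, 1.48 and 0.435 CPM in MCAO and 0.975, 0.519 and 2.37 in sham LN, and the groups overlapped.

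Of the sodium channel beta subunits, Scn4b fell after MCAO. Its levels were 678, 834 and 455 CPM in MCAO and 1579, 766 and 1214 in sham LN. The groups overlapped, since sham LN replicate 2 was below MCAO replicate 2. The log2 change was -0.86 ± 0.26 (edgeR adjusted p = 0.0412). Scn4b is strongly expressed in striatal projection neurons, and 10 markers of these neurons summed to 8231, 3939 and 7204 CPM in sham LN replicates 1 to 3 and to 3065, 4225 and 3029 CPM in MCAO, in the same order of libraries as Scn4b within each of these groups. None of the 10 was at 0 in a group, and their part in the Scn4b value was not tested. In pontine infarction Scn4b was at 158, 161 and 137 CPM against 266, 267 and 312 in sham PN. These groups did not overlap, and the change of -0.89 ± 0.26 missed the threshold (edgeR adjusted p = 0.0788).

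Scn2b and Scn4b are linked to the alpha subunit by a disulfide, and Scn3b without a covalent bond. Scn2b was at 316, 594 and 306 CPM in MCAO and 671, 624 and 614 in sham LN. All MCAO libraries were below all shams, replicate 2 only slightly, and the change of -0.65 ± 0.22 was just outside the threshold (edgeR adjusted p = 0.0558). After pontine infarction Scn2b was at 341, 329 and 350.2 against 386, 405 and 377, again with no overlap but a change of only -0.20 ± 0.22 (adjusted p = 0.629). Scn3b was at 69.9, 227 and 123 CPM against 258, 251 and 296 in sham LN, likewise below all shams (log2 change -0.94 ± 0.41, adjusted p = 0.124).

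Of 9 calcium channel alpha1 subunits 0 passed edgeR's test after either stroke, and 2 (Cacna1c and Cacna1h) were lower at an unadjusted p under 0.05 after MCAO and 1 (Cacna1d) after pontine infarction. In the presynaptic class, Cacna1a forms the P/Q-type pore and was at 185, 242 and 275 CPM in MCAO, 256, 345 and 219 in sham LN, 111, 110.5 and 165 in pontine infarction and 124, 139 and 156 in sham PN. Groups overlapped, and the highest pontine infarction value was replicate 3 (log2 changes -0.23 ± 0.22 and -0.12 ± 0.22, edgeR adjusted p = 0.481 and 0.784). Cacna1b, the N-type pore, was at 82.6, 180.1 and 155 CPM in MCAO, 150.0, 197 and 155 in sham LN, 82.8, 84.2 and 47.3 in pontine infarction and 95.5, 101 and 111 in sham PN. Only the pontine infarction libraries were all below their shams, and neither change passed (log2 changes -0.27 ± 0.28 and -0.52 ± 0.28, edgeR adjusted p = 0.518 and 0.302). The R-type gene Cacna1e was lower in MCAO replicate 1 and the unnumbered library, at 121, 337 and 218 CPM against 297, 354 and 335 in sham LN (log2 change -0.54 ± 0.32, adjusted p = 0.244).

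L-type pores carry calcium signals from the membrane to the nucleus. Cacna1c was at 44.7, 93.3 and 43.7 CPM in MCAO and 108, 88.6 and 92.6 in sham LN, and at 33.9, 35.0 and 21.7 in pontine infarction and 40.2, 42.8 and 38.2 in sham PN. MCAO replicate 2 lay within the shams while the other MCAO libraries were at about equal and lower levels (log2 change -0.67 ± 0.28, edgeR adjusted p = 0.108), and all pontine infarction libraries were below their shams (log2 change -0.42 ± 0.28, adjusted p = 0.404). Cacna1d had 55.2, 86.5 and 75.7 CPM in MCAO and 89.2, 91.2 and 92.3 in sham LN, then 36.3, 35.97 and 28.7 in pontine infarction and 49.0, 42.4 and 40.35 in sham PN. Neither stroke group overlapped with its shams, by small margins, and neither change passed (log2 changes -0.33 ± 0.17 and -0.38 ± 0.17, adjusted p = 0.183 and 0.213). Cacna1s, the skeletal muscle pore, had 57, 59 and 50 counts in the MCAO libraries and 67, 83 and 10 in sham LN, but 1, 0 and 1 in pontine infarction and 1, 0 and 1 in sham PN.

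T-type pores open near the resting potential and support burst firing. Cacna1h was at 40.0, 88.6 and 33.3 CPM in MCAO and 140.2, 97.8 and 129.7 in sham LN. All MCAO libraries were below all shams, and the change of -1.18 ± 0.38 lay just outside the threshold (edgeR adjusted p = 0.0519). Cacna1g was at 93.1, 115 and 184 CPM in MCAO and 111, 175 and 98.6 in sham LN, which overlapped (log2 change 0.03 ± 0.29, adjusted p = 0.958), and at 52.6, 77.1 and 94.9 in pontine infarction and 89.1, 87.4 and 87.4 in sham PN (log2 change -0.23 ± 0.29, adjusted p = 0.671). Cacna1i was at 285, 233 and 334 CPM in MCAO, 331, 314 and 271 in sham LN, 73.9, 83.0 and 58.7 in pontine infarction and 74.1, 91.0 and 109.6 in sham PN. Both stroke groups overlapped with their shams (log2 change -0.10 ± 0.19, edgeR adjusted p = 0.723 after MCAO, and -0.35 ± 0.19, 0.309 after pontine infarction). Among the T-type genes the MCAO change was thus above 1 in size for Cacna1h and near 0 for the other two, a difference between genes that was not tested.

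**Figure D3:**
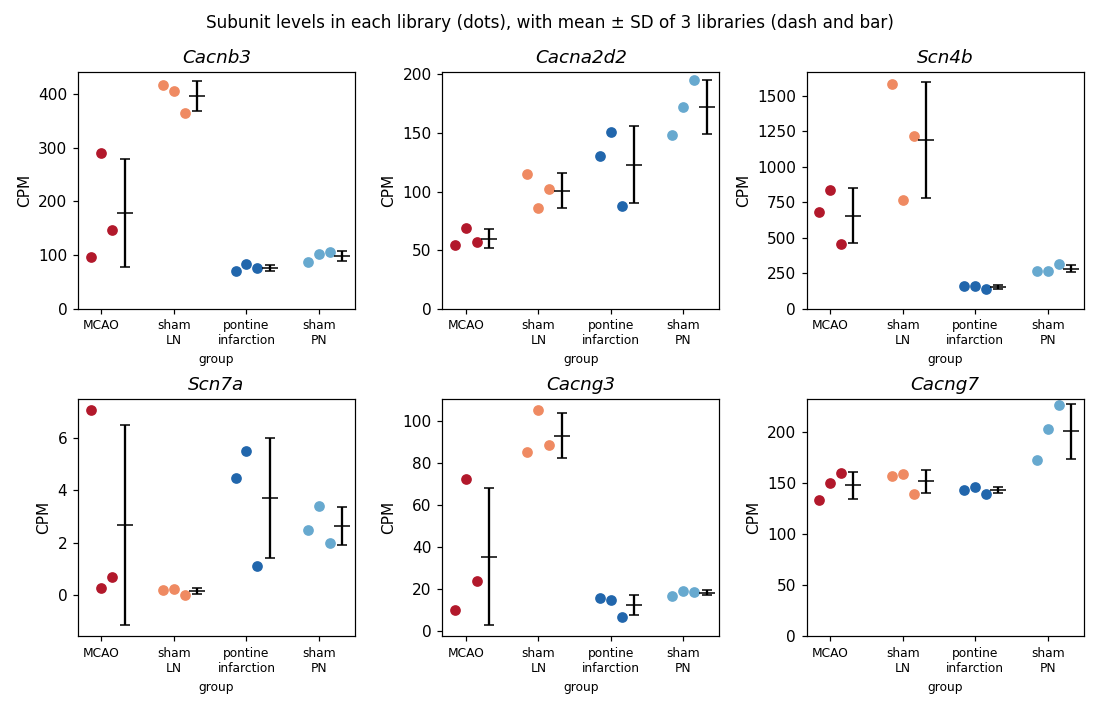
Level in CPM of selected channel subunit genes in every library of the 4 groups; points are libraries, and bars give the mean and SD of 3 libraries. MCAO replicate 2 is the highest MCAO point for Cacnb3, at 291 CPM against 365 to 417 in sham LN, and for Cacng3, at 72.2 against 85.1 to 105, and Scn7a is high in 1 MCAO library only. The lower end of a bar can fall below 0 for Scn7a because the SD exceeds the mean.

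Of 4 calcium channel beta subunits Cacnb3 fell after MCAO. The beta subunits bind the alpha1 pore inside the cell and raise its surface density, and Cacnb3 is abundant in forebrain neurons. It was at 96.8, 291 and 147 CPM in MCAO and 417, 407 and 365 in sham LN. Every MCAO library was below every sham, and replicate 1 was lowest. The log2 change was -1.15 ± 0.30 (edgeR adjusted p = 0.0235). In pontine infarction Cacnb3 was at 71.1, 82.5 and 76.3 against 86.8, 102 and 105 in sham PN, lower in 3 of 3 libraries by a smaller and uncalled amount (log2 change -0.35 ± 0.30, adjusted p = 0.52).

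Cacnb4, the beta subunit whose loss causes ataxia and seizures in lethargic mice, was at 168, 192 and 239.8 CPM in MCAO and 196, 227 and 214 in sham LN. These overlapped, and the log2 change was -0.09 ± 0.18 (edgeR adjusted p = 0.752). In pontine infarction it was at 65.8, 69.6 and 56.2 and in sham PN at 81.7, 80.9 and 55.1, overlapping as well (log2 change -0.18 ± 0.18, adjusted p = 0.581). The ratio of Cacnb4 to Cacnb3 counts, 1 of 4 such ratios computed, chosen after the values were seen and not corrected for length, was 1.73, 0.66 and 1.63 in MCAO and 0.471 to 0.586 in sham LN. It was above every sham LN ratio in 3 of 3 MCAO libraries, a description with no test. In pontine infarction this ratio was 0.737 to 0.925 and in sham PN 0.524 to 0.941, which overlapped. Cacnb1 was at 149, 215 and 305 CPM in MCAO, 250.5, 241 and 258 in sham LN, 77.7, 81.4 and 54.1 in pontine infarction and 78.1, 91.9 and 112 in sham PN, and Cacnb2 ranged from 37.5 to 71.2 CPM in MCAO and from 53.0 to 75.6 in sham LN. Neither passed after a stroke.

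The alpha2delta subunits promote trafficking of the pore and take part in synapse formation. Cacna2d2 was at 54.1, 68.8 and 56.6 CPM in MCAO and 115, 85.7 and 102 in sham LN. It was lower in each MCAO library, including replicate 2 (log2 change -0.75 ± 0.20, edgeR adjusted p = 0.026). In pontine infarction Cacna2d2 was at 130.4, 151 and 87.5 against 149, 172 and 195 in sham PN, where replicate 2 was above the lowest sham (log2 change -0.48 ± 0.20, adjusted p = 0.19). Cacna2d1, the main target of gabapentin in pain pathways, was at 134, 254 and 191 CPM in MCAO and 182, 232 and 195 in sham LN, then 73.3, 75.3 and 24.4 in pontine infarction and 77.6, 71.5 and 43.5 in sham PN. Replicate 1 of MCAO and replicate 3 of pontine infarction were the low libraries, and neither change passed (log2 changes -0.08 ± 0.38 and -0.15 ± 0.38, edgeR adjusted p = 0.905 and 0.845). The ratio of Cacna2d1 to Cacna2d2 counts was 2.47, 3.69 and 3.37 in MCAO and 1.59, 2.71 and 1.9 in sham LN, which overlapped. Cacna2d3 was at 125, 150.5 and 181 CPM in MCAO, 191, 164 and 188 in sham LN, 30.3, 29.0 and 22.5 in pontine infarction and 36.6, 34.5 and 35.1 in sham PN. Only the pontine infarction libraries stood below all their shams (log2 changes -0.25 ± 0.15 and -0.38 ± 0.16, edgeR adjusted p = 0.264 and 0.19).

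The TARPs among the gamma subunits deliver AMPA receptors to the synapse and slow their gating. Cacng3 had the most negative MCAO change of the 36 members without passing. It was at 10.2, 72.2 and 23.6 CPM in MCAO and 85.1, 105 and 88.4 in sham LN. All MCAO libraries were below all shams, replicate 1 at the bottom and replicate 2 close to the shams (log2 change -1.40 ± 0.54, edgeR adjusted p = 0.0885). Cacng8, the TARP gamma-8 of hippocampus and cortex, did not share this pattern, at 57.4, 66.0 and 91.3 CPM in MCAO and 59.0, 74.0 and 61.2 in sham LN with overlap (log2 change 0.14 ± 0.28, adjusted p = 0.74). The ratio of Cacng8 to Cacng3 counts, also chosen after the values were seen, was 5.65, 0.915 and 3.86 in MCAO and 0.692 to 0.703 in sham LN. In pontine infarction Cacng8 was at 18.5, 19.0 and 8.07 CPM and in sham PN at 21.1, 19.5 and 22.0, without overlap and without passing (log2 change -0.45 ± 0.28, adjusted p = 0.374).

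Cacng2, stargazin, was at 22.7, 26.2 and 54.4 CPM in MCAO and 39.3, 43.4 and 34.3 in sham LN. The unnumbered MCAO library was above every sham and the others below every sham (log2 change -0.18 ± 0.30, edgeR adjusted p = 0.699). In pontine infarction it was at 30.5, 23.6 and 16.8 against 30.6, 33.3 and 32.9 in sham PN, a narrow separation (log2 change -0.45 ± 0.30, adjusted p = 0.414). Cacng4 was at 70.0, 51.1 and 102 CPM in MCAO and 63.1, 49.2 and 60.9 in sham LN, and at 21.5, 25.0 and 23.3 in pontine infarction and 32.6, 41.2 and 46.2 in sham PN. It was above every sham in 2 of 3 MCAO libraries (log2 change 0.37 ± 0.23, adjusted p = 0.269) and below all shams after pontine infarction (log2 change -0.78 ± 0.23, adjusted p = 0.0799). Cacng7, which regulates calcium-permeable AMPA receptors, was at 143, 146 and 139 CPM in pontine infarction and 172, 203 and 226 in sham PN. Its pontine libraries lay close together and below all shams, and the change of -0.49 ± 0.13 had the smallest adjusted p of the members in that comparison (0.0551, edgeR). In MCAO and sham LN it overlapped, at 133, 149.9 and 159 and 157, 158 and 139 CPM (log2 change -0.04 ± 0.13, adjusted p = 0.86). Cacng5 stayed between 3.21 and 7.40 CPM in all libraries. The 2 gamma subunits that are not TARPs, Cacng1 of skeletal muscle and Cacng6, did not exceed 1.40 CPM, and Cacng6 had 4, 8 and 1 counts in pontine infarction against 9, 17 and 14 in sham PN (log2 change -1.85 ± 0.62, edgeR adjusted p = 0.114).

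The calls after MCAO depended on single libraries. Without MCAO replicate 2, the library whose channel genes lay nearest the shams, 15 members passed, 1 higher and 14 lower (38.9%, against 18.8% of the 17529 genes tested in that fit). The 11 added members included Cacna1c, Cacna1d, Cacna1e, Cacna1h, Cacnb2, Cacng3, Scn2b, Scn3a, Scn3b and Scn8a, with an edgeR adjusted p of 8.38e-04 for Cacng3 and a log2 change of -2.55 ± 0.40. In the other direction, none of the 4 calls held whichever library was left out. Cacnb3 had an adjusted p of 0.0936 without the unnumbered MCAO library and 0.0753, 0.0637 and 0.0577 without sham LN replicate 1, 2 or 3. For Cacna2d2 it was 0.059 without MCAO replicate 1, 0.0895 without the unnumbered library, and 0.0999 and 0.076 without sham LN replicates 1 and 3. Scn4b reached 0.0712 and 0.143 without MCAO replicate 1 or the unnumbered library and 0.162 and 0.103 without sham LN replicates 1 or 3. It also reached 0.0514 to 0.0607 without pontine infarction replicate 1 or 2 or any sham PN library, none of which belongs to the groups compared. Scn7a also lost its call without any sham LN library (0.0827 to 0.105) or any sham PN library (0.0509 to 0.0524), and with limma voom (0.172). Cacna1h and Scn2b, which lay just outside the threshold, passed as lower with DESeq2 size factors in edgeR (adjusted p = 0.0438 and 0.0446), without a filter (0.0274 and 0.0348), in DESeq2 (0.0105 and 0.0159) and in limma voom (0.0379 and 0.0399).

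The difference between the responses, MCAO against sham LN minus pontine infarction against sham PN, asks whether a member moved differently after MCAO than after pontine infarction. In edgeR's test 0 members passed, as did 0% of all genes tested, and DESeq2 and limma voom also called 0 members. At an unadjusted p under 0.05 there were 3 members, all with a positive difference, against 10.7% of all genes in either direction. These were Cacng4 (log2 difference 1.15 ± 0.32, adjusted p = 0.277), Cacng7 (0.45 ± 0.18, 0.414) and Scn7a (3.72 ± 1.55, 0.433). Without MCAO replicate 2, 4 members passed (11.1%, against 5.53% of all genes in that fit), Cacng4 with a positive and Cacnb3, Cacng3 and Scn2b with a negative difference. With all libraries the median difference of the 36 members was 0.04, and 19 were positive and 17 negative.

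More members passed between the sham sets than after either stroke. Of 36 members 19 were higher in sham LN and 4 higher in sham PN, and 13 did not pass (edgeR, adjusted p under 0.05). Of the 19, Cacna1s, Cacng1 and Scn11a reached the minimum of 10 counts only in sham LN and MCAO libraries. Their direction thus follows in part from how members were chosen. Likewise Scn7a, higher in sham PN, did not reach the minimum in any sham LN library. All of these are included in the counts between the shams. Over all genes 10% were higher in sham LN and 11.3% lower, against 52.8% and 11.1% of the members. The libraries of the sham sets did not overlap for 28 members that were higher in sham LN (77.8%, against 21.7% of all genes) and for 5 that were lower (13.9%, against 29.2%). The median log2 difference of the members was 1.04 and that of all genes -0.11. Calcium channel genes made up most of the higher ones: 4 of 4 beta, 7 of 9 alpha1, 2 of 3 alpha2delta and 3 of 8 gamma subunits, against 1 of 8 sodium alpha and 2 of 4 sodium beta subunits. Cacna1s is among the alpha1, Cacng1 among the gamma and Scn11a is the sodium alpha subunit in these counts.

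**Figure D4:**
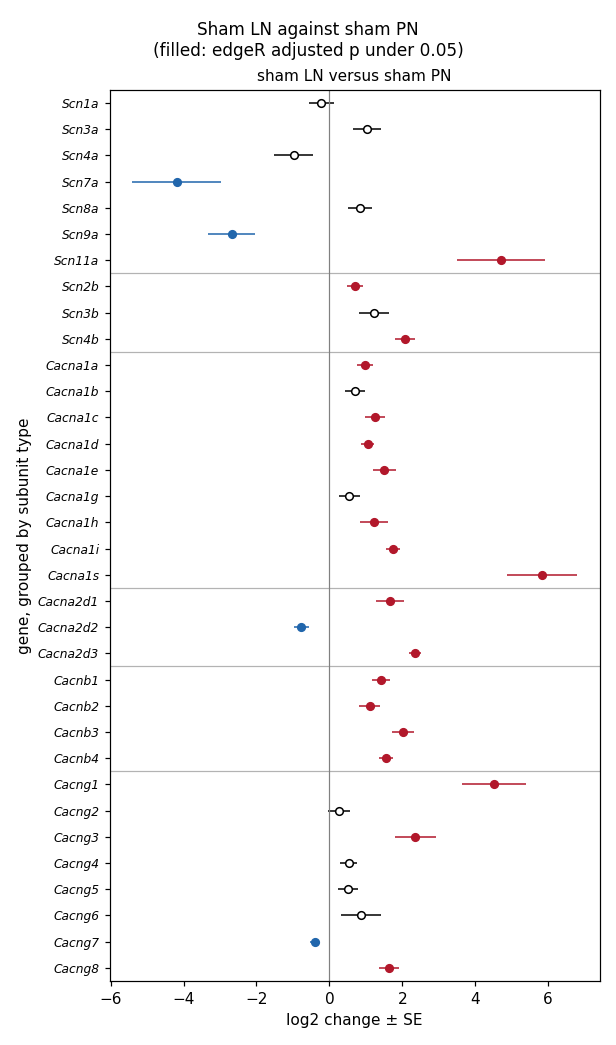
Log2 difference of 34 channel subunits between sham LN and sham PN with its standard error, positive where sham LN was higher. Filled symbols mark an adjusted p under 0.05, reached by 19 members on the side of sham LN and 4 on the side of sham PN.

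The smallest adjusted p belonged to Cacna2d3, with a log2 difference of 2.36 ± 0.16 (edgeR adjusted p = 8.36e-06), from 164 to 191 CPM in sham LN and 34.5 to 36.6 in sham PN. It was followed by Cacna1i (1.74 ± 0.19, adjusted p = 1.09e-04), Cacnb4 (1.55 ± 0.18, 1.52e-04), Scn4b (2.07 ± 0.27, 2.97e-04), Cacnb3 (2.02 ± 0.31, 8.71e-04), Cacna1d (1.05 ± 0.17, 0.00119), Cacna1s (5.84 ± 0.96, 0.00134) and Cacnb1 (1.41 ± 0.25, 0.00189). For Cacna1s, with 160 counts over sham LN and 2 over sham PN, the ratio of the pooled levels was 68.1 (95% counting interval 18.6 to 567). Cacng1 had 93 and 3 counts, a ratio of 26.4 (8.76 to 130). Scn11a had 98 counts (17, 72 and 9 in sham LN replicates 1 to 3, so mostly from replicate 2) and 3 counts, a ratio of 27.8 (9.24 to 137). These intervals cover counting error only, and the fitted differences of such genes depend on the prior count. The 4 members higher in sham PN were Scn9a (log2 difference -2.68 ± 0.66, edgeR adjusted p = 0.0127), Scn7a (-4.19 ± 1.22, 0.0302), Cacna2d2 (-0.77 ± 0.20, 0.0179) and Cacng7 (-0.40 ± 0.13, 0.0423). Scn2a1 was higher in sham LN (1.52 ± 0.29, 0.00322), whereas Scn1a did not pass (-0.22 ± 0.34, 0.704).

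Whichever library was left out, 15 of the 23 calls between the shams held. Cacna1h, Cacna2d2, Cacnb2, Cacng7, Scn11a, Scn2b, Scn7a and Scn9a each lost the call in at least 1 such fit. The number of calls lost was 6, 7 and 6 without sham LN replicates 1, 2 and 3, and 3, 7 and 7 without sham PN replicates 1, 2 and 3. It was 2 without pontine infarction replicate 1 (Cacna1h and Cacng7), and 1, Cacng7, without pontine infarction replicate 2, MCAO replicate 1 or MCAO replicate 2. The neuronal markers were split between the shams: of 11 tested, 2 were called higher in sham LN and 3 lower. Of these markers 4 had a positive and 7 a negative log2 difference, from -1.43 to 1.56 with a median of -0.38. They summed to 5881 to 7609 CPM in sham LN and 6452 to 7155 in sham PN. The 10 striatal markers summed to 3939 to 8231 CPM in sham LN and 458 to 470 in sham PN, and 8 oligodendrocyte markers, of which 1 is listed at 0, to 15230 to 21670 and 42220 to 52900. Brain region and sham set cannot be told apart in this design.

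Sodium and calcium channels work with anchoring and regulatory proteins, of which a list of 36 genes was examined. The table holds 33, and 30 were tested, Fgf13 and Cask being listed at 0 among the X-linked genes and Stac3 having at most 3 counts in a library. After MCAO 3 passed as higher and 4 as lower, 10% and 13.3% of those tested, against 12.5% and 6.07% of all genes, with a median log2 change of -0.45. The higher ones were Rrad (5.23 ± 0.82 CPM in sham LN and 25.9 ± 16.8 in MCAO, SD, n = 3) and Gem (2.54 ± 0.39 and 7.85 ± 5.75), small GTPases that inhibit calcium channels through the beta subunit, and Ahnak (70.1 ± 4.77 and 215 ± 114), a scaffold that binds beta subunits. Their log2 changes were 2.30 ± 0.48, 1.63 ± 0.46 and 1.62 ± 0.34, with edgeR adjusted p-values of 0.00955, 0.0311 and 0.0103. The lower ones were Fgf14, which binds the tail of sodium channels at the initial segment (log2 change -1.003 ± 0.315, adjusted p = 0.0465), Prrt2, a presynaptic regulator of sodium channels (-0.89 ± 0.27, 0.0415), Rims2, which tethers calcium channels at the active zone (-0.65 ± 0.21, 0.0485), and Cabp1, a calcium sensor of channel gating (-0.66 ± 0.21, 0.0461). Leaving out 1 library moved the number of lower calls to 15 without MCAO replicate 2 and to 0 without MCAO replicate 1, the unnumbered library, sham LN replicates 1 or 2 or any sham PN library. It was 1 without sham LN replicate 3, 2 and 3 without pontine infarction replicates 1 and 2 and 7 without replicate 3, and the higher calls numbered 2 to 4. With the compared libraries only, 0 passed in either direction. The other tools and scalings gave 3 higher and 8 lower with DESeq2 size factors, 3 and 11 without a filter, 3 and 13 in DESeq2 and 2 and 6 in limma voom. Over all 17008 genes the calls were 1996 higher and 1247 lower with DESeq2 size factors, 2532 and 2052 in DESeq2 and 1641 and 1200 in limma voom. Without a filter they were 1861 and 1407 of 25359 genes. Without MCAO replicate 2, 18.8% of the 17529 genes tested in that fit were lower.

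After pontine infarction 0 of the 30 anchors and regulators passed in edgeR or limma voom. DESeq2 called 2 lower, against 514 of 17008 genes. In edgeR 26 of the 30 had a negative change, and 9 were lower at an unadjusted p under 0.05 (30%, against 10.4% of all genes). The median change was -0.43. Between the shams 13 were higher in sham LN (43.3%, against 10% of all genes) and 1, Stac, was lower (3.33%, against 11.3%). With the compared libraries only these were 18 and 5, against 3301 and 3064 of all 15933 genes in that fit. Leaving out 1 library gave 7 (without sham PN replicate 2, against 1172 of 17294 genes) to 15 (without MCAO replicate 2, against 2444 of 17529) that were higher. Among them were Nedd4l, a ubiquitin ligase of sodium channels (log2 difference 1.72 ± 0.14, edgeR adjusted p = 1.92e-05), and the active zone genes Rims1 (2.07 ± 0.32, 8.71e-04) and Rims2 (1.40 ± 0.21, 7.97e-04).

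Library by library, the median of the 36 members relative to the matched sham mean was -0.73 in MCAO replicate 1, -0.12 in replicate 2 and -0.42 in the unnumbered one. It was -0.28, -0.19 and -0.91 in pontine infarction replicates 1 to 3. The same medians over the tested neuronal markers were -0.91, -0.03 and -0.33 in MCAO and -0.38, -0.36 and -1.03 in pontine infarction. The order of the libraries within each stroke group was the same for both lists. Summed neuronal markers were 3630, 6292 and 5451 CPM in MCAO and 5240, 5331 and 3379 in pontine infarction. The part of neuron content in the channel values was not tested.

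**Figure D5:**
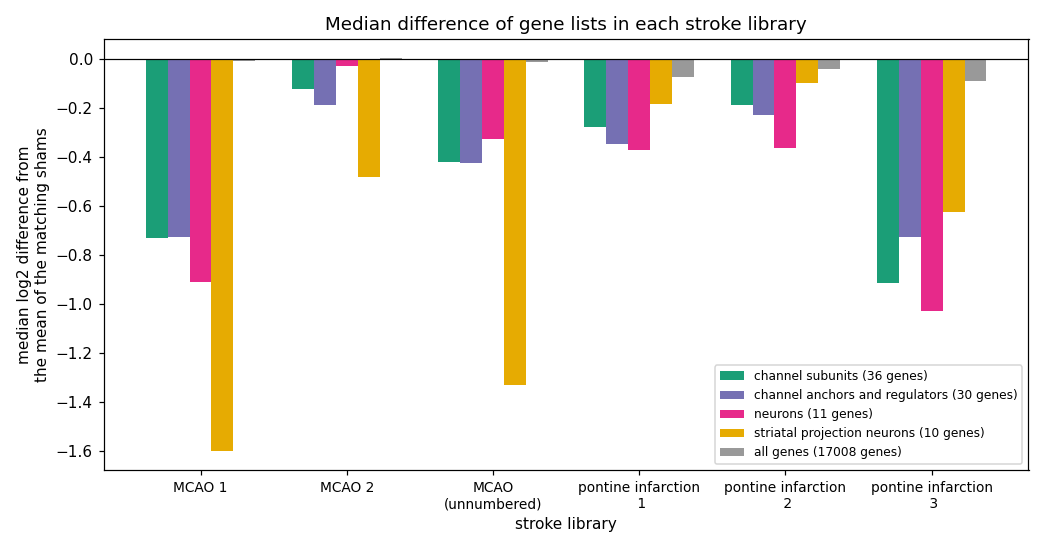
Median log2 difference from the matched sham mean in each stroke library, for the 36 channel subunits, 30 channel anchors and regulators, 11 neuronal and 10 striatal markers and all genes tested; bars start at 0. MCAO replicate 1 and pontine infarction replicate 3 are lowest for the channel subunits, at -0.73 and -0.91, and MCAO replicate 2 is nearest 0 of the MCAO libraries at -0.12.

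Several members sit next to each other in the genome. By the order of protein-coding genes in RefSeq (assembly GRCr8, used for names and neighbours only, since the reads were aligned to Rnor_6.0), no other such gene lies between Cacng6, Cacng8 and Cacng7 on chromosome 1, between Cacng1, Cacng4 and Cacng5 on chromosome 10, between Scn3a and Scn2a or among Scn1a, Scn9a and Scn7a on chromosome 3, or between Scn2b and Scn4b on chromosome 8. Some neighbours had the same direction between the shams and others did not. Scn2b (0.71 ± 0.22, edgeR adjusted p = 0.0368) and Scn4b were both higher in sham LN, and Cacng1, Cacng4 and Cacng5 all lay above sham PN without overlap, of which Cacng1 passed. In contrast, Scn1a did not pass while Scn9a and Scn7a were higher in sham PN, and Cacng8 was higher in sham LN while Cacng7 was higher in sham PN. The sources used here do not state how reads that match several of these similar genes were assigned, so values of close paralogs are uncertain to that extent.

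Promoter windows of 250 bases before the annotated start were read from RefSeq (GRCr8) for the 24 of 36 members that have one, 27 windows in all. Shown are those of Cacng3, which had the most negative MCAO change but did not pass, and of the 3 members that fell after MCAO. Capitals mark the core of the RE1 element, bound by the repressor REST (CAGCACC, any 2 bases, then GGAC), and the GC box (GGGCGG), each searched on both strands. The RE1 core was chosen with the Cacng3 sequence in view. In order, the windows lie at chr1:186632312-186632561, chr7:131666301-131666550, chr8:116950856-116951105 and chr8:54343623-54343872, all on the + strand.
Cacng3: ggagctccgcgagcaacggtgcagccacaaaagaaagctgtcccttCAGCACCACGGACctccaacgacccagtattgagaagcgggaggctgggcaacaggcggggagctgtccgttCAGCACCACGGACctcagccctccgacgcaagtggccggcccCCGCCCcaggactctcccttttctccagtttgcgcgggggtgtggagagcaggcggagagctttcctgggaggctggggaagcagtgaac
Cacnb3: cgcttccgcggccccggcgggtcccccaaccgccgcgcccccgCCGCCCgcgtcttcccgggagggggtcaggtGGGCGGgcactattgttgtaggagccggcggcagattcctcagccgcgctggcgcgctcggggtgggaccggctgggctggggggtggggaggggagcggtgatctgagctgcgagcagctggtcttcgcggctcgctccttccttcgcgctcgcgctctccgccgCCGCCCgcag
Cacna2d2: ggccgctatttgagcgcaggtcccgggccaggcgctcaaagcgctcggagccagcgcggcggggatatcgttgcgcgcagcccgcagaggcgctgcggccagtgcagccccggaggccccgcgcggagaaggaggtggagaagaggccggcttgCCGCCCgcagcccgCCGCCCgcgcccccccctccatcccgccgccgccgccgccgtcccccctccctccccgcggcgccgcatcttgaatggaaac
Scn4b: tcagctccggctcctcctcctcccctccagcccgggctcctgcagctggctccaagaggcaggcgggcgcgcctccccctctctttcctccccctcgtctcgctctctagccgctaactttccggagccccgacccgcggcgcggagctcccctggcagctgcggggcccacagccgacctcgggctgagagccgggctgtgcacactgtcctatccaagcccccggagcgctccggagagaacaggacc
The Cacng3 window held 2 copies of the RE1 core, beginning 204 and 132 bases before the start, and it was the only member window with a match, as were 17 of all 33469 windows (0.0508%). GC boxes were found in 14 of 27 member windows, against 30.5% of all windows. These belonged to 12 of 24 members, among them Cacng3, Cacnb3 and Cacna2d2 but not Scn4b. The median GC content was 64.8% in member windows and 51.2% in all windows. The CRE (TGACGTCA, 1.59% of all windows) and the AP-1 site (TGACTCA, 4.05%) were in 0 of the 27 member windows. The TATA box (TATAAA, 12.9%) was in 2 of them and the E-box (CAGCTG, 12%) in 7. A match describes the letters of the window and is not evidence of a bound site.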

How the data were processed

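The deposited table holds whole-number read counts per gene symbol in 12 libraries, not normalised by the authors. Per the submitters' processing notes reads were aligned with HISAT2 to Rnor_6.0. How they were counted, on which gene models and with what strand setting, is not given in the sources used here. Groups were taken from the labels, and 1 MCAO column whose code matches no title was used as an unnumbered library of that group.

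The analysis used edgeR 4.0.16 under R 4.3.3 (TMM scaling, filterByExpr with a minimum count of 10 and a minimum total of 15, quasi-likelihood test), which kept 17008 of 37209 symbols (45.7%). All 12 libraries were fitted as 4 group means, with a common biological coefficient of variation of 0.302. P-values are two-sided and adjusted by Benjamini-Hochberg over all genes tested, with a threshold of 0.05. The SE was obtained by dividing the size of the log2 change by the root of its F statistic. CPM are counts scaled to a library's total multiplied by its TMM factor, which ran from 0.914 (sham LN replicate 2) to 1.105 (pontine infarction replicate 2). They are not per length, so levels are compared between libraries and not between genes. A prior count of 2 entered the library medians. The fit was tested on simulated counts with known changes and no library that stood apart, so the test does not bear on such libraries.

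The members, gene lists and tests were chosen with earlier results of these data known. Full values were given for members with a call after a stroke, for the 8 with the smallest adjusted p between the shams and for fixed members (Scn1a, Scn2a, Scn3a, Scn8a, Scn2b, Scn4b, Cacna1a, Cacna1b, Cacna1c, Cacna1g, Cacna2d1, Cacnb4, Cacng2, Cacng8). Members without a call that are described in full beside these were named after their values were seen. Alternatives were DESeq2 size factors, no filter, DESeq2 1.42.0, limma 3.58.1 voom, the compared libraries only, the replicate number as a block over the numbered libraries, and leaving out each library. No 2 libraries of a group agreed within sampling noise. Values of 2 members are not reported here, though the counts over the 36 members include them.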

Additional observations from a re-analysis of the deposited data

How the results depend on the processing

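Of the 36 members 4 passed after MCAO, against 6 with DESeq2 size factors, 6 without a filter, 7 with DESeq2, 6 with limma voom and 1 with the compared libraries only. In that last setting Scn7a did not pass the expression filter. The first 4 of these settings each added Cacna1h and Scn2b, and limma voom lost Scn7a, the only rise. Leaving out 1 library gave 0 to 15. After pontine infarction 0 passed, as with DESeq2 size factors, no filter and limma voom, against 3 with DESeq2 (Cacng4, Cacng7 and Scn4b), 1 with the compared libraries only (Scn4b) and 0 to 1 when leaving out 1 library. For the difference 0 passed under each alternative except leaving out 1 library (0 to 4). Between the shams 23 passed, with 22 to 29 under the other settings and 16 to 27 when leaving out 1 library. No direction of a called member reversed. Over all genes tested 3163 passed after MCAO (1354 to 4584 under other settings, 1136 to 6170 leaving out 1 library), 694 after pontine infarction (315 to 1738, and 6 to 1416), 0 for the difference (0 to 238, and 0 to 970) and 3625 between the shams (3272 to 6365, and 2334 to 4294). Of the genes called after MCAO 67.4% were higher, against 61.5% with DESeq2 size factors, 56.9% without a filter, 55.2% with DESeq2, 57.8% with limma voom, 83.1% with the compared libraries only, 81.4% with the block and 46.6% (without MCAO replicate 2) to 83.6% (without the unnumbered MCAO library) leaving out 1 library. After pontine infarction this share was 78.7% (62.9% to 90.8% under other settings, 76.6% to 100% leaving out 1 library), and between the shams 47.0% (47.5% to 59.0%, and 46.1% to 57.2%). Without a filter the median of all genes for the difference moved from 0.08 to -0.12.

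The replicate number as a block, which could include only numbered libraries and so left out the unnumbered MCAO library as well, gave 0 members after MCAO, 1 after pontine infarction (Cacng4, adjusted p = 0.0492 in edgeR), 0 for the difference and 23 between the shams. Leaving out that library without a block already gave 1 after MCAO, Scn7a, and 1 after pontine infarction, also Cacng4. Of the anchors and regulators the block called 1 higher and 0 lower after MCAO. Whether the replicate numbers pair the libraries is not settled by these data. Deviations of same-numbered libraries from their group means correlated at 0.104 and 0.0426 for MCAO with sham LN. For pontine infarction with sham PN they correlated at 0.0483, 0.15 and 0.154. These correlations are low, yet each numbered stroke library of both groups correlated best with the sham of its own number. Changes of members with under 10 counts in a library rest on few reads.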
